A study of Mus musculus with 6 samples.

Results

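The neuronal splicing regulators described here are 10 genes of 4 families: the polypyrimidine tract binding proteins Ptbp1 and Ptbp2, the RBFOX genes Rbfox1, Rbfox2 and Rbfox3, the NOVA genes Nova1 and Nova2, and the neuronal ELAVL genes Elavl2, Elavl3 and Elavl4. They were chosen by name, and all 10 were measured among the 19938 genes whose probe sets carry 1 gene symbol. Expression was read in adult forebrain cortex of C57BL/6 mice, with 1 array for each sample labelled a biological replicate. The 3 animals labelled Dicer KO carry CamKII-Cre and Dicer flox on both alleles (CamKII-Cre/+;Dicer flox/flox), so that recombination was directed to neurons in which that promoter is active and other cells of the dissected cortex keep the gene. The 3 littermate controls were either CamKII-Cre/+;Dicer flox/+ or had Dicer flox/flox and no Cre, a choice not resolved by animal in the labels, so all 6 animals carry at least 1 floxed allele. Their ages are not given beyond adult. The series compares Dicer KO with control; Dicer makes mature microRNAs from their hairpin precursors.

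These RNA-binding proteins set the splicing pattern that distinguishes neurons from other cells. Ptbp1 is made in neural progenitors, glia and most other cell types and represses exons used in neurons. It also makes the Ptbp2 transcript skip an exon, which leads to decay of that transcript. The microRNA miR-124, which is abundant in neurons and needs Dicer for its maturation, is known to repress Ptbp1, and this is 1 step of the switch from Ptbp1 to Ptbp2 when neurons differentiate. RBFOX and NOVA proteins promote or repress neuronal exons according to where they bind around them, and Rbfox3 is the antigen known as NeuN. The neuronal ELAVL proteins, known as Hu proteins, bind AU-rich and U-rich stretches of RNA and affect splicing, stability and translation.

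The targeted gene was read first. Dicer1 had log2 expression of 9.58, 9.68 and 9.46 in labelled KO arrays 1 to 3, against 9.17, 9.21 and 9.18 in control arrays 1 to 3. The deletion is not seen in this value, which is higher under the KO label by 0.39 ± 0.087 (SE; limma adjusted p = 0.102), and which exons the probe set reads was not examined, so the groups are called by their labels throughout. The tissue label was checked against the level of a defining marker of excitatory cortical neurons, the vesicular glutamate transporter gene Slc17a7. It lay between 12.06 and 12.27 in the labelled KO arrays and between 12.12 and 12.37 in the controls, where array medians were 7.13 to 7.22. In control array 1, 11 genes typical of olfactory bulb averaged 0.73 above the control mean, against -0.47 to -0.29 in the other 5 arrays. Labelled KO array 3 had the highest astrocyte and microglia marker levels among the labelled KO arrays. The Y-linked transcript Eif2s3y read 9.13, 4.25 and 9.29 in labelled KO arrays 1 to 3, against 3.94, 9.07 and 4.44 in control arrays 1 to 3. The sexes are thus mixed in both groups and not balanced between them. With that transcript as a covariate no gene passed the threshold in limma (2292 had an unadjusted p under 0.05), Ptbp2 was at 0.36 (limma adjusted p = 0.346) and Elavl4 at -0.27 (limma adjusted p = 0.426).

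None of the 10 regulators passed the threshold, a Benjamini-Hochberg adjusted p under 0.05 over all genes (limma). Over all genes 0.281% passed, 56 in number, 0.0903% on the higher side, and none of the 10 was among the 1.6% with an adjusted p under 0.1. At an unadjusted p under 0.05 there were 2 of the 10, Ptbp2 on the higher side and Elavl4 on the lower, where 14.4% of all genes reached that level. The groups did not overlap for 3 of the 10, Ptbp2, Rbfox2 and Elavl4, where 20.3% of all genes had groups apart, 9.3% on the higher side. These shares are close to the background and are not a result about the regulators. The differences ran from -0.24 to 0.33, with a median absolute size of 0.12, against 0.10 over all genes. Their median was -0.029, against -0.0092 over all genes.

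**Figure D1:**
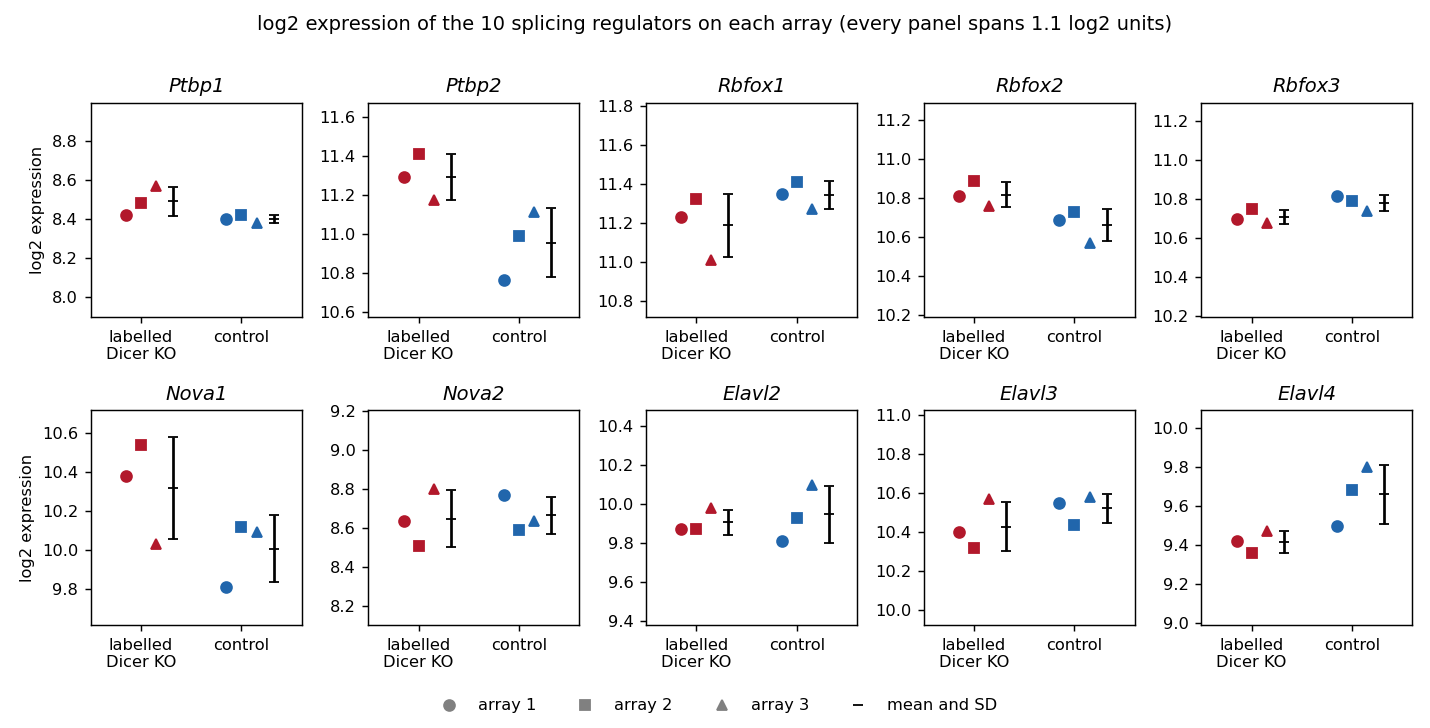
log2 expression (y axis) of each regulator on the 3 labelled Dicer KO arrays and the 3 control arrays (points, with the mean and SD beside them). The panels share a scale of 1.1 log2 units but not a level, and the groups lie apart for Ptbp2, Rbfox2 and Elavl4.

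Ptbp1, the repressor of neuronal exons, had a difference close to its SE, with a 95% interval that spans 0. It read 8.42, 8.48 and 8.57 in labelled KO arrays 1 to 3, against 8.40, 8.42 and 8.38 in control arrays 1 to 3. The highest value was in labelled KO array 3, and labelled KO array 1 was level with control array 2, so the groups overlapped. Means were 8.49 ± 0.076 in the labelled KO arrays and 8.40 ± 0.019 in the controls (SD, n = 3 each). The difference was 0.089 ± 0.082 (SE; limma adjusted p = 0.686), with a 95% interval from -0.10 to 0.28, or 0.935 to 1.21-fold. Values from slightly lower to 1.21-fold higher lie inside it. A further probe set of Ptbp1, dimmer at a mean of 7.55, read 7.51, 7.45 and 7.68 in the labelled KO arrays and 7.51, 7.47 and 7.66 in the controls, a difference of 0.0018 ± 0.099 (SE, from the fit over every row).

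Beside the Ptbp1 values stand those of marker lists for cell types other than neurons. Astrocyte markers averaged 0.12, -0.0070 and 0.49 relative to the control mean in labelled KO arrays 1 to 3, against -0.096, 0.0080 and 0.088 in control arrays 1 to 3. Microglia markers stood at -0.080, -0.27 and 0.66 in the labelled KO arrays and at -0.14, -0.049 and 0.19 in the controls. Both lists, like Ptbp1, were highest in labelled KO array 3, and without that array Ptbp1 was at 0.049. Cycling and progenitor markers were also highest there (0.23). On other arrays Ptbp1 and the astrocyte and microglia lists differed. Ptbp1 was lowest in control array 3 (8.38), where both lists were highest among the controls. From labelled KO array 1 to array 2 Ptbp1 rose, and both lists fell. Oligodendrocyte and precursor markers were highest in control array 3 (0.44 and 0.093). Endothelial and mural (0.13) and choroid plexus markers (0.29) were highest in labelled KO array 2, and meningeal fibroblast markers in labelled KO array 1 (0.39). The part of these cell types in the Ptbp1 value was not tested. The array reads precursor transcripts of miR-124, not the mature form. Mir124a-2 read 7.37, 7.67 and 7.58 in the labelled KO arrays and 7.25, 7.15 and 7.04 in the controls. Its difference of 0.39 ± 0.10 (SE) missed the threshold (limma adjusted p = 0.144). Mir124a-3 read 6.62, 6.90 and 6.88 in the labelled KO arrays and 6.30, 6.50 and 6.76 in the controls. Its groups overlapped, at a difference of 0.28 ± 0.13 (SE; limma adjusted p = 0.378).

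Ptbp2, the neuronal paralog, had the smallest p-value of the 10. It read 11.29, 11.41 and 11.17 in labelled KO arrays 1 to 3, against 10.76, 10.99 and 11.11 in control arrays 1 to 3. Every labelled KO array lay above every control, with labelled KO array 3 and control array 3 closest to each other. The difference was 0.33 ± 0.11 (SE), 1.26-fold, with a 95% interval of 1.06 to 1.5-fold, and it missed the threshold (limma adjusted p = 0.224, unadjusted p = 0.0156). Of all genes, 6.97% had a smaller p. Control array 1, which carries the olfactory bulb transcripts, was the lowest, and without it the difference was 0.24 (limma adjusted p = 0.472). With arrays weighted by their agreement, an alternative in which labelled KO array 1 has a weight of 5.18 and the other 5 between 0.426 and 1.20, Ptbp2 passed (0.36, limma adjusted p = 0.0432), as did 5.6% of all genes, 2.5% on the higher side.

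The change of the pair was set side by side within each array, with the control mean of each gene as 0. Ptbp1 minus Ptbp2 was -0.31, -0.38 and -0.047 in labelled KO arrays 1 to 3, against 0.19, -0.013 and -0.18 in control arrays 1 to 3. The groups overlapped, since labelled KO array 3 lay above control array 3. The mean was -0.24 ± 0.17 in the labelled KO arrays, beside a control SD of 0.18 (n = 3 each); Ptbp1 was the lower one relative to Ptbp2 in every labelled KO array, by amounts of the size of the spread between arrays. Without control array 1 the mean was -0.15.

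The start regions of this pair are shown because Ptbp2 is known to replace Ptbp1 when neurons differentiate, and the regions differ in base composition. Each line gives the 250 bases before the annotated start, 5′ to 3′ on the gene's strand, from RefSeq on GRCm38.p6: chr10:79854182-79854431 on the + strand for Ptbp1 and chr3:119783389-119783638 on the - strand for Ptbp2. Capitals mark matches on either strand to any of 4 motifs searched. The E-box was searched as CACGTG. The CCAAT box was searched as those letters. The GC box was searched as GGGCGG. The TATA box was searched as TATAAA.
Ptbp1: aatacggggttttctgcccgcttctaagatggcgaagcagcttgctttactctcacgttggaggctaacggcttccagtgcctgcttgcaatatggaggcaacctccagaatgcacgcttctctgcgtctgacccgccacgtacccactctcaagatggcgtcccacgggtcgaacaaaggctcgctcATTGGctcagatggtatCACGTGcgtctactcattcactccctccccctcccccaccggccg
Ptbp2: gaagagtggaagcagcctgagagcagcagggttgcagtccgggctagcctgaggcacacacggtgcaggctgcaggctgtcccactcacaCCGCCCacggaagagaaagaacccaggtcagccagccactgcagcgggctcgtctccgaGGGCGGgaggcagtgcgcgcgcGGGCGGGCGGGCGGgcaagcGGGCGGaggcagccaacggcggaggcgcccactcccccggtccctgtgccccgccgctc
The Ptbp1 window holds 1 E-box and 1 CCAAT match, which 6.02% and 33.8% of 32851 windows of the same length hold, and no GC box. The Ptbp2 window holds 6 GC box matches, some of which overlap, where 32.7% of windows hold at least 1, and neither an E-box nor a CCAAT match. Neither window holds TATAAA, which 12.4% of windows do. GC content is 57.6% for Ptbp1 and 72.4% for Ptbp2, against a median of 52.4%. Nothing measured on these arrays reads binding or methylation there, and a match is a run of letters only. RefSeq start regions were given for 9 of the 10 genes.

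**Figure D2:**
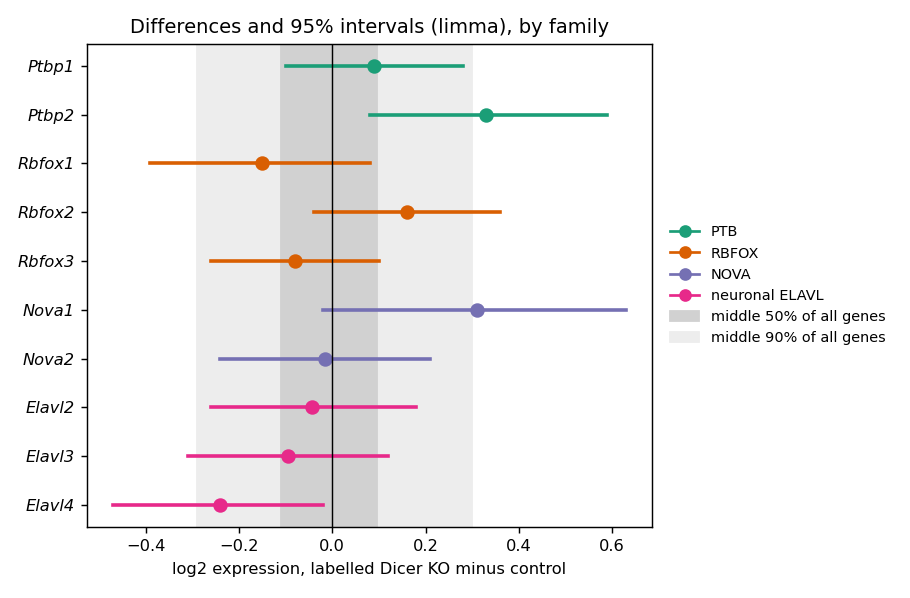
Difference in log2 expression, labelled Dicer KO minus control (x axis), of each regulator (rows) with its 95% interval from limma, coloured by family. Grey bands hold the middle 50% and 90% of all 19938 genes; the intervals of Ptbp2 and Elavl4 do not cross 0, and Ptbp2 and Nova1 lie beyond the 90% band.

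The RBFOX genes went in different directions, none past the threshold. Rbfox1, expressed in neurons, heart and muscle, read 11.23, 11.32 and 11.01 in labelled KO arrays 1 to 3, against 11.35, 11.41 and 11.27 in control arrays 1 to 3. Its lowest value was in labelled KO array 3, and labelled KO array 2 lay within the control range. The difference was -0.15 ± 0.10 (SE; limma adjusted p = 0.552), and it was -0.063 without labelled KO array 3.

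Rbfox2, which is also made outside neurons, read 10.81, 10.89 and 10.76 in labelled KO arrays 1 to 3, against 10.69, 10.73 and 10.57 in control arrays 1 to 3. The groups lay apart, by the small gap between labelled KO array 3 and control array 2. The difference was 0.16 ± 0.087 (SE; limma adjusted p = 0.454), 1.12-fold with a 95% interval of 0.975 to 1.28-fold.

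Rbfox3, the neuronal nuclear antigen, read 10.70, 10.75 and 10.68 in labelled KO arrays 1 to 3, against 10.82, 10.79 and 10.74 in control arrays 1 to 3. The groups met at labelled KO array 2 and control array 3. The difference was -0.079 ± 0.079 (SE; limma adjusted p = 0.715), with a 95% interval of 0.837 to 1.07-fold. Rbfox3 is often used to count neurons, and in bulk cortex fewer cells of a type and less RNA per cell cannot be told apart.

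The RBFOX paralogs were also set side by side within arrays. With control means at 0, Rbfox2 minus Rbfox1 was 0.26, 0.25 and 0.44 in labelled KO arrays 1 to 3, against 0.020, -0.0014 and -0.019 in control arrays 1 to 3. Rbfox2 minus Rbfox3 was 0.24, 0.27 and 0.21 in the labelled KO arrays, against -0.00046, 0.053 and -0.053 in the controls. For both pairs every labelled KO array lay above every control. The labelled KO means were 0.31 ± 0.11 and 0.24 ± 0.030 (SD), beside control SDs of 0.020 and 0.053. All pairs other than Ptbp1 and Ptbp2, those of NOVA and ELAVL included, were picked after values were seen and carry no test, and the share of all gene pairs whose groups lie apart was not computed.

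Nova1 had the largest SD of the 10 among labelled KO arrays, 0.26. It read 10.38, 10.54 and 10.03 in labelled KO arrays 1 to 3, against 9.81, 10.12 and 10.09 in control arrays 1 to 3. Labelled KO arrays 1 and 2 lay above all controls and labelled KO array 3 did not. The difference was 0.31 ± 0.14 (SE; limma adjusted p = 0.378), with a 95% interval of 0.987 to 1.55-fold. Leaving out labelled KO array 3 gave 0.45, leaving out labelled KO array 2 gave 0.19, and leaving out control array 1 gave 0.21.

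The other probe set of Nova1 did not share that pattern. It read 9.54, 9.63 and 9.35 in labelled KO arrays 1 to 3, against 9.57, 9.57 and 9.54 in control arrays 1 to 3, a difference of -0.053 ± 0.095 (SE, from the fit over every row). The probe sets thus disagree in sign, and the mean of both gives 0.13. Which transcript forms each of them reads was not examined.

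Nova2, the form most prominent in cortex, read 8.64, 8.51 and 8.80 in labelled KO arrays 1 to 3, against 8.77, 8.59 and 8.64 in control arrays 1 to 3. The groups overlapped fully. The difference was -0.015 ± 0.10 (SE; limma adjusted p = 0.968), with a 95% interval of 0.845 to 1.16-fold. Nova1 minus Nova2 was 0.39, 0.69 and -0.11 in the labelled KO arrays, against -0.30, 0.19 and 0.11 in the controls, and these also overlapped.

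**Figure D3:**
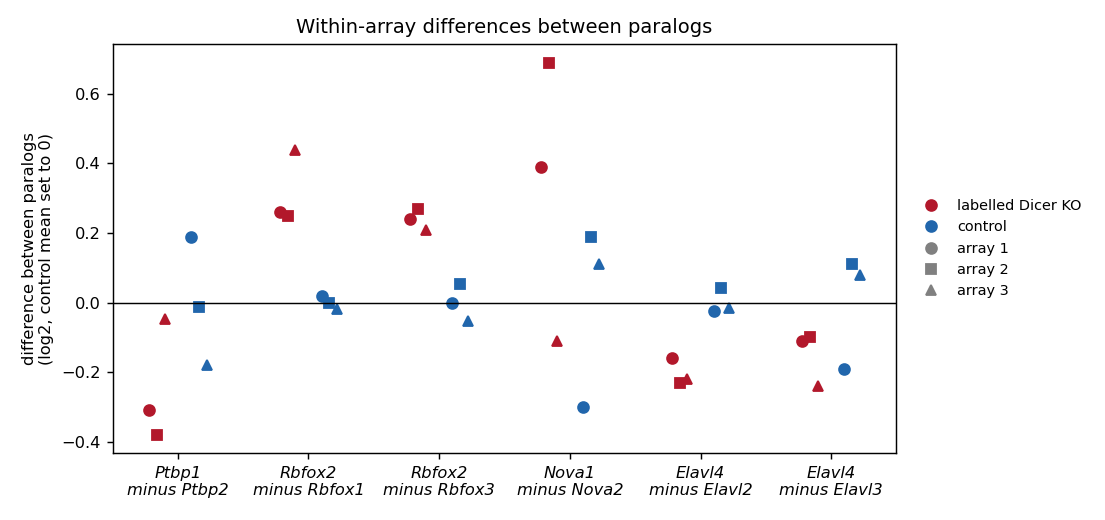
Difference between paralogs within each array (y axis, log2, with the control mean of each gene set to 0) for 6 pairs, with labelled Dicer KO arrays left of control arrays. Both Rbfox2 pairs and the Elavl4 and Elavl2 pair separate the groups. The PTB pair, the NOVA pair and the Elavl4 and Elavl3 pair do not.

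All 3 neuronal ELAVL genes had negative differences, and that of Elavl4 was the largest in size. Elavl4, the HuD protein gene, read 9.42, 9.36 and 9.47 in labelled KO arrays 1 to 3, against 9.50, 9.68 and 9.80 in control arrays 1 to 3. Every labelled KO array lay below every control, by the smallest gap at control array 1. The difference was -0.24 ± 0.098 (SE), 0.844-fold, with a 95% interval of 0.724 to 0.985-fold, and it missed the threshold (limma adjusted p = 0.303, unadjusted p = 0.0348). A smaller p was found for 11.5% of all genes. Leaving out 1 array at a time gave -0.32 to -0.18, with limma adjusted p from 0.265 to 0.541.

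Elavl2, the HuB protein gene, read 9.87, 9.87 and 9.98 in labelled KO arrays 1 to 3, against 9.81, 9.93 and 10.10 in control arrays 1 to 3. The difference was -0.043 ± 0.098 (SE; limma adjusted p = 0.888), well inside its error, and it was 0.033 without control array 3. Elavl3, the HuC protein gene, read 10.40, 10.32 and 10.57 in labelled KO arrays 1 to 3, against 10.55, 10.44 and 10.58 in control arrays 1 to 3. The difference was -0.095 ± 0.095 (SE; limma adjusted p = 0.715), and leaving out labelled KO array 3 gave -0.16, leaving out labelled KO array 2 gave -0.040. Both genes had overlapping groups.

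Elavl4 was set beside its paralogs in the same way, with no test. Elavl4 minus Elavl2 was -0.16, -0.23 and -0.22 in labelled KO arrays 1 to 3, against -0.025, 0.041 and -0.015 in control arrays 1 to 3, with the control means at 0. The groups lay apart. Elavl4 minus Elavl3 was -0.11, -0.10 and -0.24 in the labelled KO arrays and -0.19, 0.11 and 0.080 in the controls, and control array 1 lay among the labelled KO arrays.

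Neuronal marker lists were read on the same arrays. Of the markers, 1 of 12 pan-neuronal, 1 of 11 excitatory and 0 of 11 interneuron genes passed the threshold, beside 0.281% of all genes. At an unadjusted p under 0.05 (limma) were 58.3%, 18.2% and 27.3% of these lists, beside 14.4% of all genes. Groups lay apart for 66.7%, 9.09% and 18.2%, beside 20.3% of all genes. The 12 pan-neuronal markers, of which Rbfox3 is 1, averaged -0.27, -0.31 and -0.27 relative to the control mean in labelled KO arrays 1 to 3, against -0.0060, -0.017 and 0.023 in control arrays 1 to 3, and 11 of the 12 had negative differences. Their mean log2 level was 11.30 to 11.34 in the labelled KO arrays and 11.59 to 11.63 in the controls. The 11 measured excitatory neuron markers averaged -0.098, -0.12 and -0.15, against -0.056 to 0.028 in the controls. Of these 11, 7 had negative and 4 positive differences. The 1 past the threshold was the neurogranin gene Nrgn, at -0.6 (limma adjusted p = 0.0413). Interneuron markers averaged -0.034, -0.081 and 0.11, against 0.13, -0.11 and -0.019 in the controls, and the groups overlapped. Reactive astrocyte genes averaged 0.35, 0.37 and 0.76 in the labelled KO arrays and -0.063, -0.041 and 0.10 in the controls. The part of these markers in the values of Rbfox1, Rbfox3 and Elavl4 was not tested.

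**Figure D4:**
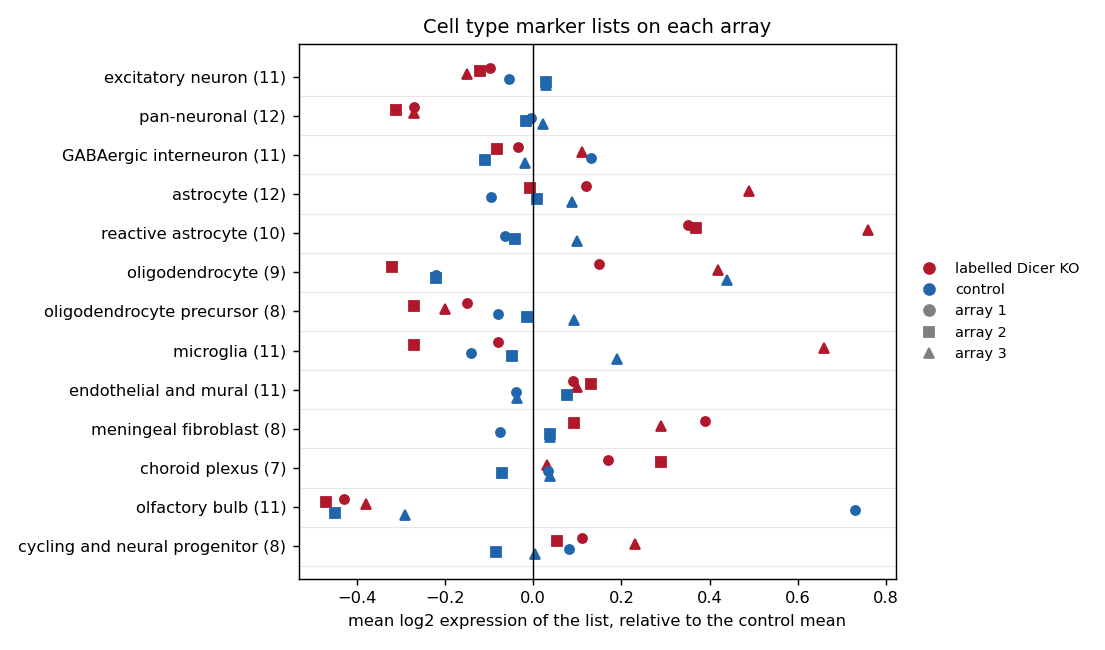
Mean log2 expression of cell type marker lists (rows, with the number of genes measured) on each array, relative to the control mean (x axis). Pan-neuronal markers lie at -0.31 to -0.27 in the labelled Dicer KO arrays, reactive astrocyte genes at 0.35 to 0.76, and olfactory bulb genes at 0.73 in control array 1.

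Other splicing regulators were described from 4 lists. Of 63 measured genes, 45 had positive differences and 18 negative, with a median of 0.079, against 47.3% positive and a median of -0.0092 over all genes. None passed the threshold. At an unadjusted p under 0.05 there were 8 on the higher side and 0 on the lower, where 7.01% and 7.39% of all genes were found. Groups lay apart for 15 of the 63, beside the 20.3% of all genes.

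Among relatives and cofactors of the PTB proteins, 5 of 6 measured were positive. Ptbp3, a paralog found mainly in blood-forming and other non-neuronal cells, read 9.71, 9.84 and 9.96 in labelled KO arrays 1 to 3, against 9.42, 9.45 and 9.66 in control arrays 1 to 3. The groups lay apart, at a difference of 0.33 ± 0.10 (SE; limma adjusted p = 0.205). Hnrnpll was at 0.18 and Hnrnpl at 0.079, both RNA-binding proteins related to PTB in sequence. Leaving out labelled KO array 2 gave 0.05 for Hnrnpll, and leaving out labelled KO array 3 gave 0.29. The ubiquitous ELAVL protein gene Elavl1, known as HuR, was at -0.066.

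Of 26 measured regulators of tissue-specific splicing, 16 were positive, and 4, or 15.4%, had an unadjusted p under 0.05, beside 14.4% of all genes. Groups lay apart for 4 on the higher and 4 on the lower side, together 30.8% of the 26. Over all genes the share was 20.3%, with 9.3% on the higher side. Celf3, a brain CELF protein gene, read 10.19, 10.11 and 10.18 in labelled KO arrays 1 to 3, against 9.80, 9.82 and 9.69 in control arrays 1 to 3. The groups lay well apart, and the difference of 0.39 ± 0.083 (SE), 1.31-fold, was the nearest to the threshold among the 63 (limma adjusted p = 0.0885). Pcbp2, a poly(C) binding protein gene, was at 0.27 ± 0.088 and the Musashi gene Msi2 at 0.27 ± 0.091 (SE). The neuronal microexon regulator Srrm4 was at 0.0013, and its relative Srrm3 at -0.083.

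Of 17 other hnRNP protein genes, 11 were positive, and Hnrnpul1 stood out at 10.21, 10.24 and 10.31 in labelled KO arrays 1 to 3, against 9.91, 9.94 and 9.98 in control arrays 1 to 3. Its difference was 0.31 ± 0.080 (SE; limma adjusted p = 0.136). Hnrnpf was at 0.21 and Hnrnpd at 0.17, neither with groups apart. Of 14 SR and SR-like protein genes, which mostly promote exon inclusion, 13 were positive, with a median of 0.13. Tra2b was at 0.30 ± 0.097, Srsf3 at 0.23 ± 0.084 and Srsf2 at 0.27 ± 0.13 (SE), the first pair with groups apart. Srsf2 was at 0.15 without control array 3. With the mean of all probe sets of each gene Tra2b was at 0.45 and Srsf3 at 0.20, neither past the threshold.

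Transcripts reported as targets of the regulators were examined at the level of the whole gene, since the table holds 1 value per probe set and reads no exon inclusion. Of 44 measured, 14 had positive and 30 negative differences, with a median of -0.071, so that 31.8% were positive, against 47.3% of all genes. None passed the threshold. At an unadjusted p under 0.05 there were 2 on the higher and 7 on the lower side, where 7.01% and 7.39% of all genes were found. Groups lay apart for 13 of the 44, or 29.5%, beside 20.3% of all genes. Several are synaptic or cytoskeletal genes of neurons, and Snap25 and Syt1 are also in the pan-neuronal list and Camk2a in the excitatory one.

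For PTB, 7 of 10 targets were negative. Dlg4, which encodes the postsynaptic scaffold PSD-95 and whose transcript decays when PTB proteins make it skip an exon, read 11.47, 11.22 and 11.18 in labelled KO arrays 1 to 3, against 11.62, 11.72 and 11.56 in control arrays 1 to 3. The groups lay apart, at -0.34 ± 0.10 (SE; limma adjusted p = 0.187). The clathrin light chain gene Cltb was at -0.24 ± 0.088, and Shtn1, which encodes the growth cone protein shootin, was at 0.28 ± 0.093 (SE).

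For RBFOX, 8 of 11 targets were negative. Snap25, a SNARE protein gene, read 13.04, 13.06 and 13.00 in labelled KO arrays 1 to 3, against 13.25, 13.21 and 13.28 in control arrays 1 to 3, and the groups lay apart. Its difference was -0.21 ± 0.079 (SE; limma adjusted p = 0.259). The transcription activator gene Camta1 was at -0.23 ± 0.091 and Ank3, the ankyrin of the axon initial segment, at -0.19 ± 0.080 (SE). With the mean of all its probe sets Camta1 was at -0.14.

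For NOVA, 10 of 16 targets were negative, with the netrin receptor gene Neo1 at 0.28 ± 0.086, the phospholipase gene Plcb4 at -0.26 ± 0.098 and the membrane skeleton gene Epb41l3 at -0.22 ± 0.099 (SE). For ELAVL, 5 of 7 were negative. Bdnf, a neurotrophin gene, read 7.61, 7.48 and 7.58 in labelled KO arrays 1 to 3, against 7.86, 7.96 and 8.14 in control arrays 1 to 3. The groups lay apart, at -0.43 ± 0.097 (SE; limma adjusted p = 0.102). Nrn1, the neuritin gene, read 11.47, 11.38 and 10.10 in the labelled KO arrays and 11.62, 11.67 and 11.43 in the controls, and its difference of -0.59 ± 0.31 (SE) was -0.15 without labelled KO array 3. The growth cone protein gene Gap43 was at -0.16 ± 0.11 (SE), and leaving out labelled KO array 1 gave -0.25, leaving out labelled KO array 2 gave -0.092.

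**Figure D5:**
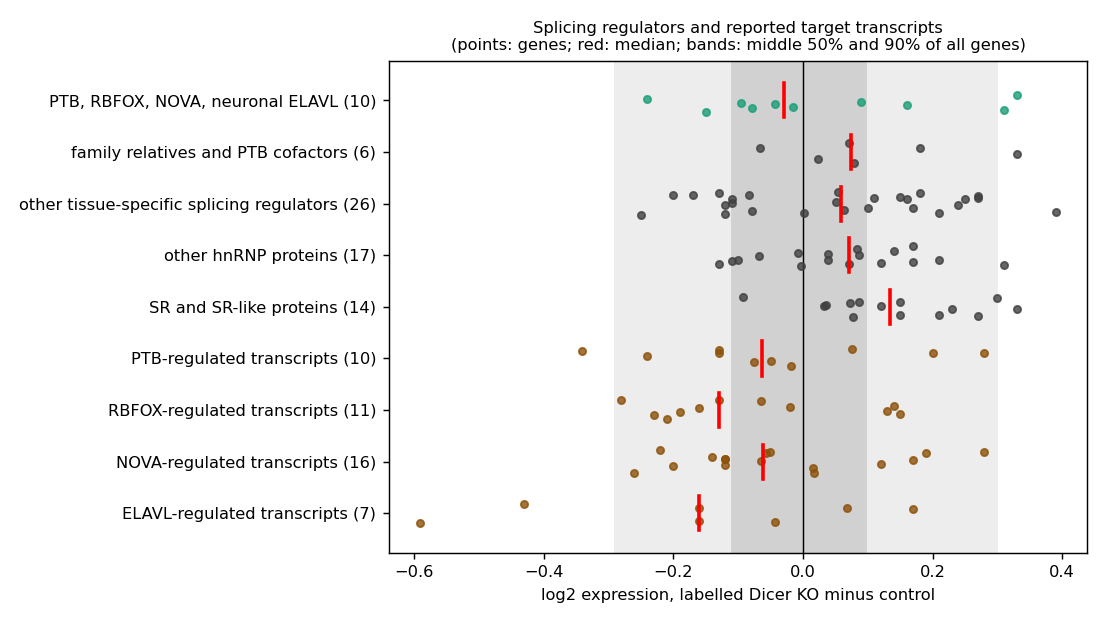
Difference in log2 expression, labelled Dicer KO minus control (x axis), for every measured gene (points) of the 10 regulators, 4 lists of other splicing regulators and 4 lists of reported targets, with the number of genes and the median (red). Medians of the other regulators lie between 0.058 and 0.13 and those of the targets between -0.16 and -0.061.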

How the data were processed

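Total RNA (200 ng per sample) was labelled and hybridised to Affymetrix arrays with a whole-transcript kit, per the labels' protocols. The authors deposited log2 values per probe set; the submitters' processing notes name RMA and limma without versions. RMA gives arrays like distributions, which can hide a change of most genes at once and shrinks differences of dim ones. No detection calls were used, and precision is limited by having 6 arrays.

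Of 35557 rows, 21789 carry 1 gene symbol in the platform table; 21698 were renamed through their gene identifier with the GRCm38.p6 gene table. Where a gene had several probe sets, the brightest by its mean was kept. The test was limma 3.58.1 under R 4.3.3 (lmFit, eBayes, prior degrees of freedom 4.89), two-sided, with Benjamini-Hochberg adjustment over 19938 genes; SEs and 95% intervals are moderated. The labels call the arrays biological replicates. An exact permutation of 3 against 3 could not go below 0.1. The steps were tested on simulated data. No array was a copy of another: any pair differed in at least 35523 rows.

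The 10 members and the lists were chosen with earlier results of these data known. Named genes are the 10 members, the 3 genes of smallest p in each list of regulators or targets, the genes most alike Ptbp1 and the member of smallest p, and Dicer1. The genes Elavl1, Srrm3, Srrm4, Slc17a7, Nrgn, Mir124a-2, Mir124a-3, Eif2s3y, Syt1 and Camk2a were added after values were seen. Some listed genes were not analysed here. Alternatives covered single arrays, normalization, filters, probe sets, the variance model, a Y-linked covariate and the array number as a block.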

Additional observations from a re-analysis of the deposited data

How the results depend on the processing

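Over 18 alternatives, 8 of the 10 regulators kept their direction in every one. Some alternatives leave the log2 difference as it is and could not change a direction. These are the array number as a block, the filter of dim genes, every row tested, the trended prior, no moderation and the looser threshold. The mean of all probe sets could move only Ptbp1 and Nova1 among the regulators. Nova2 changed sign to 0.054 without labelled KO array 2 and to 0.036 without control array 1, and Elavl2 to 0.033 without control array 3; both differences were inside their errors to begin with. With 1 array left out Nova2 ran from -0.088 to 0.054 and Elavl2 from -0.11 to 0.033. No regulator passed the threshold in any alternative other than array weights, where 1 did (Ptbp2). Array weights gave 1116 genes in all, or 5.6% of those tested. Among them were 2 of 63 other splicing regulators and 4 of 44 reported targets. Without labelled KO array 3 and control array 1 together Ptbp2 was at 0.30 and Elavl4 at -0.35, with no call among the regulators.

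The count over all genes, 56, was 0 to 129 with 1 array left out, where no regulator, other splicing regulator or reported target passed. The highest of these was without labelled KO array 3 and all others gave 0 (in limma, unadjusted p under 0.05 was found for 2197 to 2532). It was 12 without labelled KO array 3 and control array 1 together, 98 without dim genes (those under the 0.25 quantile of mean level), where fewer were tested, and 320 at an adjusted p under 0.1, when 1 other splicing regulator (Celf3) passed. It was 0 with every row tested (3725 at an unadjusted p under 0.05), with no moderation (2403) and with a Y-linked transcript as covariate (2292). The cause of these shifts was not tested. With the array number as a block the count was 215 and no regulator passed. Deviations of arrays of the same number had r of 0.0895, 0.166 and 0.294, and those of unlike number r from -0.229 to 0.0943. The labels do not say that the numbers pair animals, and the main fit uses no pairing. Whether they do was not settled. Ptbp1 minus Ptbp2 ran from -0.34 (without labelled KO array 3) to -0.15 (without control array 1).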

Other observations

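Likeness of pattern over the 6 arrays was measured by Pearson's r among 9668 genes at or above the median level, as a description only: the arrays share the group difference and the tissue makeup, and many genes reach a high r over so few points. The genes most like Ptbp1 were Lpcat3, a lysophospholipid acyltransferase (r = 0.991), the ubiquitin ligase gene Rnf149 (0.990) and the histone demethylase gene Phf8 (0.989), and 42 genes had r over 0.95. The genes most like Ptbp2 were the prion protein gene Prnp (0.992), the interneuron peptide gene Vip (0.990) and the nuclear pore gene Nup188 (0.989), with 119 genes over 0.95.

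Among the regulators themselves the highest r was that of Ptbp2 and Nova1 (0.91), followed by Rbfox1 and Rbfox3 (0.86), and the lowest was that of Rbfox2 and Elavl4 (-0.89). Ptbp2 and Nova1 shared their lowest array, control array 1, and their highest, labelled KO array 2. The dimmer probe set of Nova1 had the same highest array but its lowest was labelled KO array 3.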
